A study of Rattus norvegicus with 5 samples.

Results

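Rab small GTPases were followed across 5 arrays of INS-1, an insulin-secreting cell line from a rat insulinoma. The members were all probe sets whose single gene symbol in the platform annotation is Rab followed directly by a digit. Of 15866 probe sets and 10411 genes on the array, the rule took 67 probe sets of 51 genes. Of these, 60 probe sets of 44 genes are Rab GTPases. The other 7 probe sets, of 7 genes, encode partner proteins that carry a Rab in their name (Rab11fip3, Rab11fip4, Rab11fip5, Rab3gap2, Rab3il1, Rab3ip and Rab5if), and they are described apart from the GTPases. Another 2 probe sets that the annotation gives to Rab1a and Rab1b together were left out.

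The arrays held total RNA of 4 INS-1 Flp-In T-REx clones and of the parental INS-1 line, 1 array each. Clones 5-3.14 and 5-3.19 are named here set 5-3, clones 1-1.2 and 1-1.16 are named set 1-1, and the parental line carries neither insert. Every clone carries an FRT recombination site, for placing a chosen gene at a fixed position, and the tetracycline repressor, which keeps such a gene silent until tetracycline is added. The labels name no introduced gene and no tetracycline treatment for any of the 5 samples, and they do not say how the 2 numbers before the point in a clone's name arose. Each clone is a separate clonal line and has a single array, so the spread within a set is between sister clones and is not separated from the error of culture, labelling and hybridisation.

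Rab proteins are small GTP-binding switches with a lipid tail. Bound to GTP they sit on the face of one membrane compartment and recruit effectors, such as motors, tethers and fusion factors; bound to GDP they are drawn off the membrane by GDP dissociation inhibitor. Exchange factors load GTP and GTPase-activating proteins end the active state. In the pancreatic beta cell Rab3 and Rab27 proteins sit on insulin granules and act in their docking and release, while other Rabs act at the Golgi, endosomes and lysosomes.

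Signals were already scaled to a common level on every array, with a trimmed mean between 1000.24 and 1000.28 in arbitrary units. A probe set was tested where its mean log2 signal reached the 40th percentile, a signal of about 194, and 9520 of the 15866 probe sets did so. All 10 measured beta cell markers passed that filter, and their fitted clone minus parental difference was below 0 for 9 of the 10. The insulin gene Ins1 lay between 34380.8 and 42217.0, whereas the other insulin gene, Ins2, had 3952.8 and 4302.7 in set 5-3, 30224.0 and 5380.8 in set 1-1, and 28816.1 in the parental line. The summed signal of the 10 was 93672.1 to 151376.3 over the clones, with 152578.9 on the parental array. Of the 11 fibroblast, endothelial and leukocyte markers measured, 0 passed, and the summed signal of these 11 was 972.6 to 1022.3 in the clones and 1126.1 on the parental array. Of 7 acinar and ductal markers 1 passed, the keratin gene Krt7, at 808.1 to 1218.0 over the clones, with 1833.8 on the parental array, and the summed signal of the 7 was 1067.1 to 1566.4 over the clones, with 2181.9 on the parental array. Of 8 markers of other islet and enteroendocrine cells 4 passed: glucagon (Gcg), gastrin (Gast), cholecystokinin (Cck) and secretin (Sct). The summed signal of those 8 was 28392.1 and 35160.9 in set 5-3 and 11642.7 and 25294.2 in set 1-1, and it was 14329.4 in the parental line. Within that sum Gast went the other way, with 12.9 and 18.0 in set 5-3, 2540.1 and 3474.5 in set 1-1, and 1361.6 in the parental line, and it was the 1 gene of the list that limma called lower in set 5-3. The part of these markers in the Rab results was not tested. The parental array stood apart in the bacterial poly(A) control transcripts added before labelling: its signal was 1.27 to 3.56 times the mean of the clones for the 5 transcripts. The clone sets differed in these controls too. Both 5-3 arrays lay above both 1-1 arrays for the lys, phe, thr and trp transcripts, and the sets overlapped for dap. The phe signal was 7962.0 and 6598.3 in set 5-3, 6037.0 and 6069.2 in set 1-1, and 8480.3 in the parental line. The part of these controls in the Rab results was not tested.

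Of the 60 GTPase probe sets, 51 of 37 genes passed the filter and were tested. The 9 that did not belong to Rab6b, Rab8b, Rab15 (both probe sets), Rab25, Rab27b, Rab31 (its second probe set), Rab38 and Rab39a. The files used give no detection calls, so their low signals cannot be told from background; the filter took the mean over all arrays, and Rab6b missed it through its low signals in set 5-3. The 4 GTPase probe sets of highest signal are given first. Rab1a, which acts in transport from the endoplasmic reticulum to the Golgi, had signals of 15949.6 and 17079.2 in set 5-3, 18568.4 and 17134.7 in set 1-1, and 17073.8 in the parental line. Rab2a, of the intermediate compartment between the endoplasmic reticulum and the Golgi, had 7506.0 and 7886.0 in set 5-3, 7921.3 and 7644.1 in set 1-1, and 7901.8 in the parental line. The 5 values of each gene lay close together. Rab7a, the GTPase of late endosomes, had 8633.7 and 8419.4 in set 5-3, 8077.6 and 6629.5 in set 1-1, and 8421.7 in the parental line on its brighter probe set. Rab6a, a Golgi Rab, had 7918.3 and 7700.6 in set 5-3, 7316.6 and 6918.5 in set 1-1, and 7591.7 in the parental line on its brighter probe set. For both, the 5-3 clones lay above the 1-1 clones by a small margin, 0.22 on the log2 scale for Rab7a and 0.13 for Rab6a. Over the 37 tested GTPase genes the median spread between the highest and lowest array was 0.67 on the log2 scale, against 0.69 over all 6944 tested genes. At least 2-fold between the highest and lowest array was reached by 11 of the 51 GTPase probe sets (21.6%), against 25.6% of all tested probe sets.

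**Figure D1:**
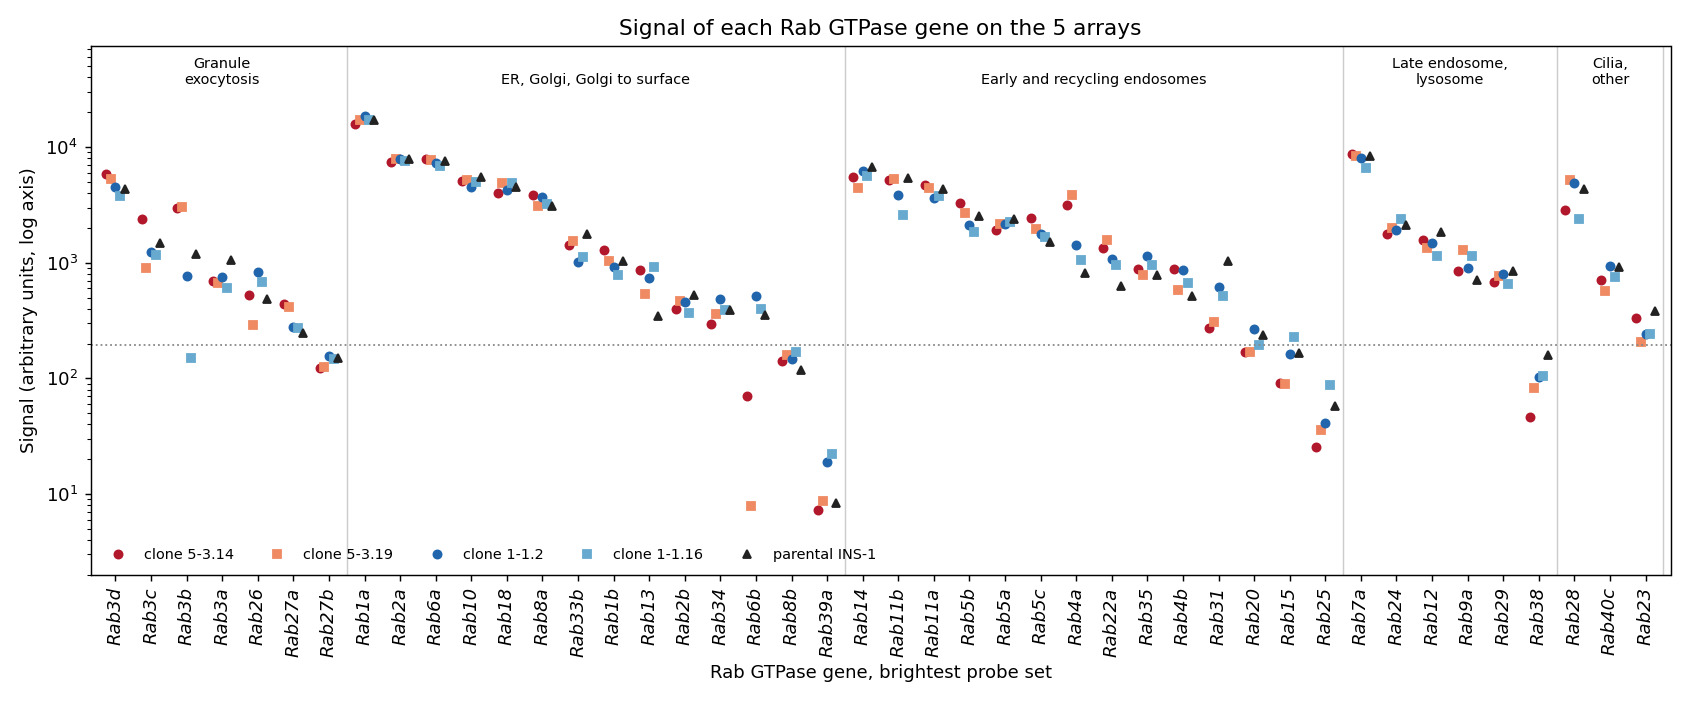
Signal (arbitrary units, log axis) of each of the 44 Rab GTPase genes on the 5 arrays, 1 point per array, taken from the gene's brighter probe set and grouped by compartment; the dotted line marks the filter at a signal of about 194. Points of one gene can be compared with each other, but not between genes, because probes differ in brightness; most genes form a tight cluster, while Rab3b, Rab4a, Rab6b and Rab31 are spread out.

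The first comparison set the 5-3 clones against the 1-1 clones. One Rab GTPase probe set passed limma's test at a Benjamini-Hochberg adjusted p of 0.05, and it was lower in set 5-3: Rab34. It passed the filter through set 1-1 and the parental line, its signals in set 5-3 lay under the filter level, and the call was lost with no filter (limma adjusted p = 0.0678). With a fitted gap of at least 2-fold and no overlap there were 2 above (Rab3b and Rab4a), against 2.92% of all tested probe sets, and 1 below (Rab34), against 2.26%. The share among the 51 GTPase probe sets was 1.96%, against 0.200% of all tested probe sets called lower, and a single probe set is too few to read against that share. None of the 51 was called higher by limma, against 0.221% of all tested probe sets. At an unadjusted limma p of 0.05, 8 of the 51 passed (15.7%), against 14.8% of all tested probe sets, so the family stood near the background. They were Rab3b, Rab4a, 1 probe set each of Rab11a, Rab11b and Rab5b on the higher side, and Rab34, Rab26 and 1 probe set of Rab31 on the lower side. Both 5-3 clones lay above both 1-1 clones for 19 of the 51 probe sets (37.3%), of 16 genes, against 22.1% of all tested probe sets. Both lay below for 10 (19.6%), of 9 genes, against 24.5%. These counts depend on the filter. Among the GTPase probe sets under it, both 5-3 clones lay below both 1-1 clones for Rab6b, Rab15 (both probe sets), Rab25, Rab27b, Rab38 and Rab39a. The sets overlapped for Rab8b and for the second Rab31 probe set. The lean to higher signal in set 5-3 was thus seen only among the probe sets above the filter. Taking 1 probe set per gene, the median difference between set 5-3 and set 1-1 was 0.07 on the log2 scale over the 37 GTPase genes and -0.05 over all 6944 tested genes.

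**Figure D2:**
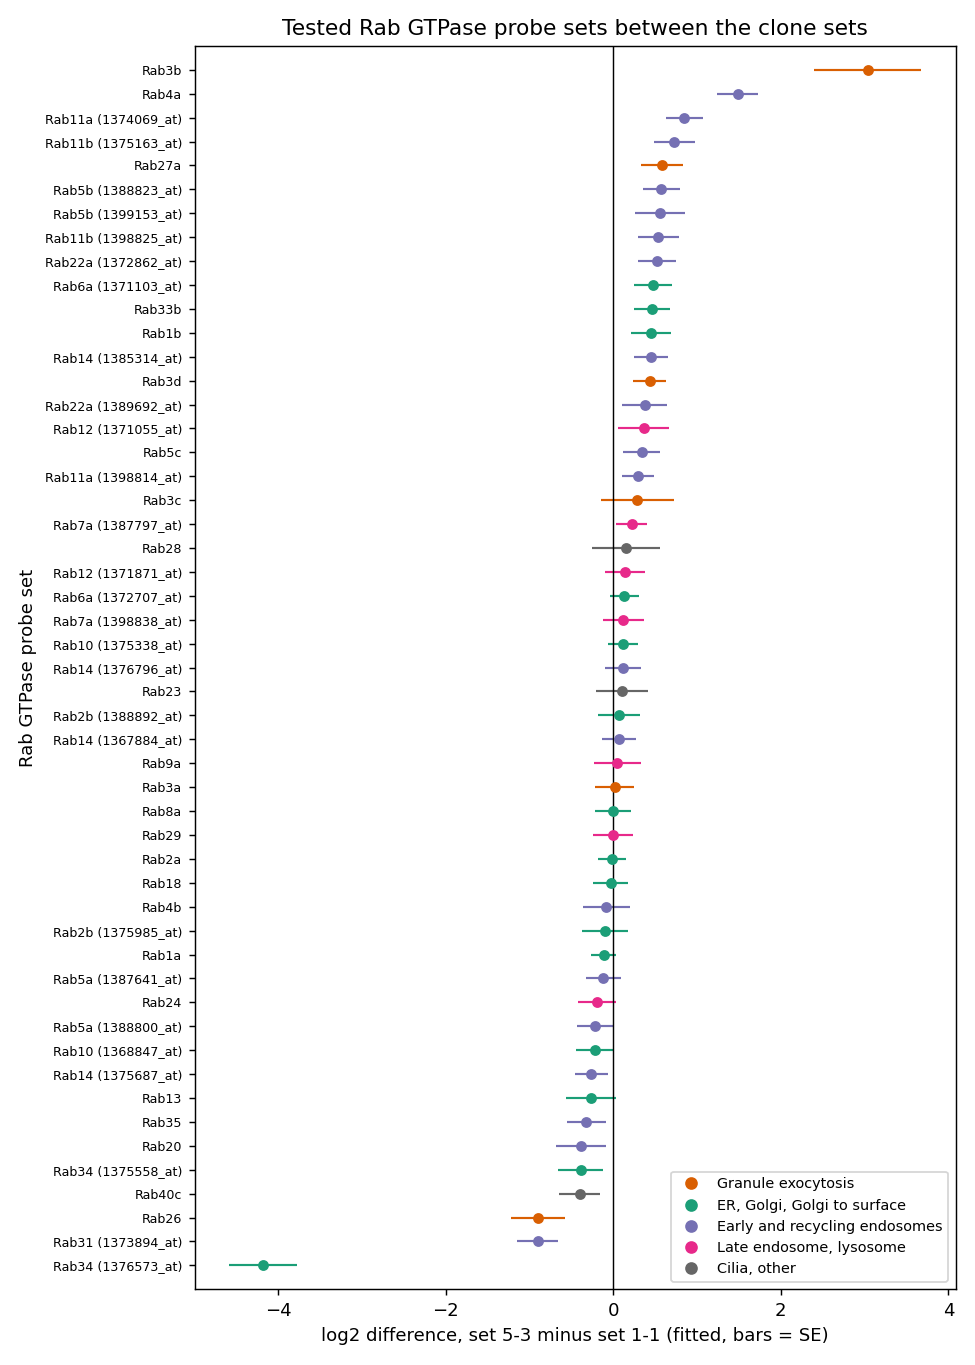
Fitted log2 difference between set 5-3 and set 1-1 (bars are the standard error) for the 51 tested Rab GTPase probe sets, coloured by compartment and ordered by size. Rab34 on probe set 1376573_at, at -4.18, and Rab3b, at 3.04, lie far from the others, most of which lie within 1 unit of 0.

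The gene starts of the 3 tested Rabs with the widest gap between the sets (Rab34, Rab3b and Rab4a), and of the dim Rab with the widest gap (Rab6b), are shown so that their upstream sequence can be read beside their values. Each run is the 250 bases before the RefSeq start on the GRCr8 build, 5′ to 3′ on the gene's own strand, which is the plus strand for all 4. Capitals mark a GC box (GGGCGG) or a CCAAT box (CCAAT) on either strand. Rab34 lies at chr10:63581292-63581541, Rab3b at chr5:128858841-128859090, Rab4a at chr19:68692831-68693080 and Rab6b at chr8:112573973-112574222.
Rab34: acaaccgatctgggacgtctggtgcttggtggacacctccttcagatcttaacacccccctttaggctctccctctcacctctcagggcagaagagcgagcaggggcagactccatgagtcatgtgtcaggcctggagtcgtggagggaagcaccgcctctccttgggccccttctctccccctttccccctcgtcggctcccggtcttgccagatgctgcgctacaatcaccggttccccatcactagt
Rab3b: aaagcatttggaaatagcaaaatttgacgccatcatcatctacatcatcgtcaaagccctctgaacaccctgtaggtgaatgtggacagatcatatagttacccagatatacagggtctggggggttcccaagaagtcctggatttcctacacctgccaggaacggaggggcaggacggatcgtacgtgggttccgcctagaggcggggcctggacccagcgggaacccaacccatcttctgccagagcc
Rab4a: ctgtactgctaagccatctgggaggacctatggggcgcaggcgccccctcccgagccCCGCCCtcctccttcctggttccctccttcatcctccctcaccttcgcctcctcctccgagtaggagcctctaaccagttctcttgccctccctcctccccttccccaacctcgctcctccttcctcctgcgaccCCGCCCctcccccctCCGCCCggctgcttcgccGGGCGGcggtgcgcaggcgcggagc
Rab6b: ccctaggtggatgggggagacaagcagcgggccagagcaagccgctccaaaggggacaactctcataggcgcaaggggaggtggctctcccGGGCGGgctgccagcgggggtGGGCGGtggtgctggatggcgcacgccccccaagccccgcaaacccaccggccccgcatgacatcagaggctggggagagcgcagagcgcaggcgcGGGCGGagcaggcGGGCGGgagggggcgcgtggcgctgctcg
Rab4a and Rab6b each held 4 GC boxes, and the Rab34 and Rab3b windows held none. The base composition followed the same order, with 70.0% G or C for Rab4a and 73.6% for Rab6b, against 60.4% for Rab34 and 53.6% for Rab3b. None of the 4 windows held a CCAAT box. The 2 Rabs with higher signal in set 5-3, Rab3b and Rab4a, thus differ from each other in these motifs, and so do Rab34 and Rab6b, both with lower signal there.

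Windows of this kind were found for 36 of the 44 GTPase genes, and the same 6 motifs were searched on both strands in the 33465 windows of the whole table; none of the 6 letter strings contains another. A GC box occurred in 30 of the 36 (83.3%), against 30.5% of all windows. The CRE half-site TGACG occurred in 13 (36.1%), against 18.2%. CCAAT occurred in 12 (33.3%), against 34.0%, the E-box CAGCTG in 3 (8.33%), against 12.0% of all windows, and the nuclear receptor half-site AGGTCA in 3 (8.33%), against 14.1%. TATAAA occurred in 0 of the 36, against 12.9% of all windows. The median window held 63.4% G or C and 17 CpG dinucleotides in the Rab GTPases, against 51.2% and 5 over the whole table. GC boxes and G or C content were thus both higher in the Rab windows than over the whole table. The part of base composition in the GC box count was not tested, and a match describes letters, not a bound site.

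Rab34 links the Golgi to the positioning of lysosomes and acts in the formation of primary cilia. Its probe set 1376573_at had signals of 75.1 and 22.0 in set 5-3, against 1144.0 and 1172.3 in set 1-1. The parental line had 577.2, between the sets. The 1-1 clones were nearly equal, both 5-3 clones were far below every other array, and clone 5-3.19 was lowest. The mean was 48.5 ± 37.5 in set 5-3 and 1158 ± 20.0 in set 1-1 (SD, n = 2 each). On the log2 scale the signal fell by 4.18 ± 0.40 (SE) in set 5-3, 18.1-fold lower, with a limma adjusted p of 0.0176. Each array averages a whole culture, so fewer expressing cells and less RNA per cell cannot be told apart. Both 5-3 signals lie under the filter level of about 194, so the size of the fold rests on values near background. The second probe set, 1375558_at, had 295.6 and 357.9 in set 5-3, 483.1 and 386.9 in set 1-1, and 391.2 in the parental line. Its sets did not overlap and pointed the same way, but the log2 difference was -0.39 ± 0.26 (limma adjusted p = 0.568). The 2 probe sets of Rab34 thus gave one direction and very different sizes, and the call belongs to one of them.

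Rab6b, the Golgi Rab that is most abundant in neurons, was the dim GTPase with the widest gap. It had 70.2 and 7.8 in set 5-3, against 510.4 and 397.3 in set 1-1, with 351.8 in the parental line. As with Rab34, both 5-3 clones were lowest and clone 5-3.19 was the lower of them. It missed the filter on its mean and entered no reported test; fitted with no filter, the log2 difference was -3.18 ± 0.58 (limma adjusted p = 0.146). Rab15, which acts in endosomal recycling in neurons, was dim on both of its probe sets. The first, 1370758_at, had 90.7 and 89.4 in set 5-3, against 162.0 and 226.9 in set 1-1, with 164.7 in the parental line. The second, 1373646_at, had 21.6 and 20.4 in set 5-3, against 146.7 and 93.0 in set 1-1, with 71.3 in the parental line. Both 5-3 clones lay below all other arrays on each.

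Among the 6 tested Rabs of granule exocytosis, 3 genes were higher in both 5-3 clones than in both 1-1 clones (Rab3b, Rab3d and Rab27a), Rab26 was lower in both, and Rab3a and Rab3c overlapped; over all tested genes 21.7% lay above and 26.1% below in this way. The median log2 difference of the 6 was 0.36, against -0.05 over all tested genes, and none passed the test in either direction. That median was 0.18 without clone 5-3.14 and 0.57 without clone 5-3.19. Rab3b, one of 4 closely related Rab3 proteins of regulated secretion, had 2948.1 and 3012.4 in set 5-3, 764.3 and 148.7 in set 1-1, and 1195.6 in the parental line. The 5-3 clones were nearly equal and highest, the parental line lay between the sets, and clone 1-1.16 was at least 2-fold below every other array. The mean was 2980 ± 45.5 in set 5-3 and 456 ± 435 in set 1-1 (SD, n = 2 each), and the log2 difference was 3.04 ± 0.64, 8.20-fold (limma adjusted p = 0.122). The log2 difference was 4.14 without clone 1-1.2 and 1.93 without clone 1-1.16. Those fits take their residual spread from the 5-3 pair alone, so no p-value is read from them. The 5-3 sisters differed by 0.03 on the log2 scale, whereas clone 1-1.16 minus clone 1-1.2 was -2.2. Rab27a, which docks insulin granules through granuphilin, had 440.5 and 411.6 in set 5-3, 280.0 and 272.8 in set 1-1, and 246.9 in the parental line. The gap between the sets was wider than either pair's own spread, with a log2 difference of 0.59 ± 0.25 (limma adjusted p = 0.348). Rab3d had 5848.7 and 5319.3 in set 5-3, 4495.3 and 3770.6 in set 1-1, and 4358.7 in the parental line, a log2 difference of 0.44 ± 0.20 (limma adjusted p = 0.378).

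Rab26, a Rab of secretory granules and vesicle autophagy, ran the other way. It had 527.3 and 290.8 in set 5-3, 825.1 and 683.4 in set 1-1, and 482.0 in the parental line, and the parental value fell within the range of set 5-3. The log2 difference was -0.90 ± 0.32 (limma adjusted p = 0.264). Rab3a, the Rab3 most studied in synaptic and insulin vesicle release, had 693.6 and 668.3 in set 5-3, 751.4 and 601.5 in set 1-1, and 1052.9 in the parental line. The sets overlapped, and the difference between them was 0.02 ± 0.23 on the log2 scale, so its interval spans changes either way. Rab3c had 2381.5 and 893.2 in set 5-3, 1230.5 and 1156.2 in set 1-1, and 1492.0 in the parental line. Its 2 sister clones of set 5-3 were the highest and the lowest of all arrays, 1.39 apart on the log2 scale. Rab27b, the other Rab27, was dim on every array and was not tested. It had 122.6 and 126.4 in set 5-3, 155.8 and 147.1 in set 1-1, and 149.0 in the parental line. Its sets did not overlap, and set 5-3 was lower.

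Rab4a returns receptors from early endosomes to the surface by the fast route. It had 3152.7 and 3834.0 in set 5-3, 1430.7 and 1055.8 in set 1-1, and 820.0 in the parental line. All 4 clones lay above the parental line, and the 5-3 clones lay furthest above it. The mean was 3493 ± 482 in set 5-3 and 1243 ± 265 in set 1-1 (SD, n = 2 each), a log2 difference of 1.48 ± 0.25, 2.80-fold (limma adjusted p = 0.0692). With 1 clone left out at a time, and its lone sister assumed to vary like the other groups, the limma adjusted p of Rab4a was 0.0290 without clone 5-3.14 and 0.0507 to 0.266 without each of the others. Rab11a and Rab11b, Rabs of the slow recycling route, had smaller gaps, and none of their probe sets passed the test; Rab25, a dim relative of theirs, had 25.6 and 35.4 in set 5-3, 40.9 and 87.6 in set 1-1, and 57.7 in the parental line. On probe set 1374069_at, Rab11a had 1802.8 and 1755.8 in set 5-3, 1074.7 and 891.5 in set 1-1, and 1500.7 in the parental line, a log2 difference of 0.85 ± 0.22 (limma adjusted p = 0.165). On probe set 1398814_at, Rab11a had 4668.8 and 4410.9 in set 5-3, 3602.6 and 3788.8 in set 1-1, and 4356.6 in the parental line, a log2 difference of 0.30. On probe set 1375163_at, Rab11b had 5172.0 and 5302.1 in set 5-3, 3863.3 and 2571.5 in set 1-1, and 5454.2 in the parental line, a log2 difference of 0.73 ± 0.24 (limma adjusted p = 0.229). Its second probe set, 1398825_at, had 2472.4 and 2115.0 in set 5-3, 1811.7 and 1351.6 in set 1-1, and 2486.5 in the parental line. On each of the 4 Rab11a and Rab11b probe sets the sets did not overlap, and the parental line lay nearer to set 5-3 than to set 1-1.

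Other endosomal Rabs divided between the directions. Of the 12 tested genes of early and recycling endosomes, both 5-3 clones lay above both 1-1 clones for 6 and below for 5, against 21.7% and 26.1% of all tested genes, and the median log2 difference was 0.11. That median changed sign with the settings, to -0.10 with no filter on dim probe sets. Rab5b, which acts in the fusion of early endosomes, had 3254.0 and 2695.1 in set 5-3, 2135.9 and 1835.0 in set 1-1, and 2537.9 in the parental line on probe set 1388823_at, a log2 difference of 0.58 ± 0.22 (limma adjusted p = 0.287). On its other probe set, 1399153_at, clone 5-3.19 at 1768.6 lay just below clone 1-1.2 at 1771.2, so the sets overlapped there. Rab22a, of early endosomes, had 1343.3 and 1570.2 in set 5-3, 1067.1 and 947.0 in set 1-1, and 626.3 in the parental line on probe set 1372862_at. Its sets did not overlap and all 4 clones lay above the parental line. Rab31, a close relative of Rab22a that acts between the Golgi and endosomes, had 274.0 and 306.7 in set 5-3, 613.2 and 511.4 in set 1-1, and 1042.8 in the parental line. It ran opposite to Rab22a, with all 4 clones below the parental line and set 5-3 lowest, at a log2 difference of -0.90 ± 0.24 between the sets (limma adjusted p = 0.177). Its dim probe set 1370780_at had 54.0 and 212.0 in set 5-3, 237.7 and 178.7 in set 1-1, and 191.4 in the parental line, and the sets overlapped there.

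Smaller gaps on the lower side, with no overlap, were found for Rab40c, Rab20 and Rab35. Rab40c, which joins a ubiquitin ligase complex, had 702.2 and 567.0 in set 5-3, 937.7 and 753.0 in set 1-1, and 914.9 in the parental line. Rab20, an endosomal Rab, had 168.7 and 167.4 in set 5-3, 265.2 and 193.0 in set 1-1, and 235.1 in the parental line. Rab35, which acts in recycling at the plasma membrane, had 883.3 and 787.3 in set 5-3, 1149.7 and 950.1 in set 1-1, and 783.8 in the parental line. Their log2 differences were -0.40, -0.39 and -0.32, and the limma adjusted p ranged from 0.521 to 0.614. Of the 11 tested Golgi and surface transport genes, both 5-3 clones lay above both 1-1 clones for 4 and below for 2, against 21.7% and 26.1% of all tested genes, with a median log2 difference of 0.00. Rab1b, the close homologue of Rab1a, had 1295.2 and 1040.5 in set 5-3, 909.4 and 778.5 in set 1-1, and 1037.4 in the parental line. Rab33b, a Golgi and autophagy Rab, had 1418.9 and 1553.9 in set 5-3, 1019.7 and 1129.4 in set 1-1, and 1767.7 in the parental line. Both stood higher in set 5-3 without overlap, by 0.45 for Rab1b and 0.46 for Rab33b on the log2 scale, and neither passed the test. Of the 5 tested late endosome and lysosome genes, 1 (Rab7a) had sets that did not overlap, and of the 3 genes of cilia and other functions, 1 (Rab40c) did, against the same shares of all tested genes; counts this small say nothing about these groups.

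**Figure D3:**
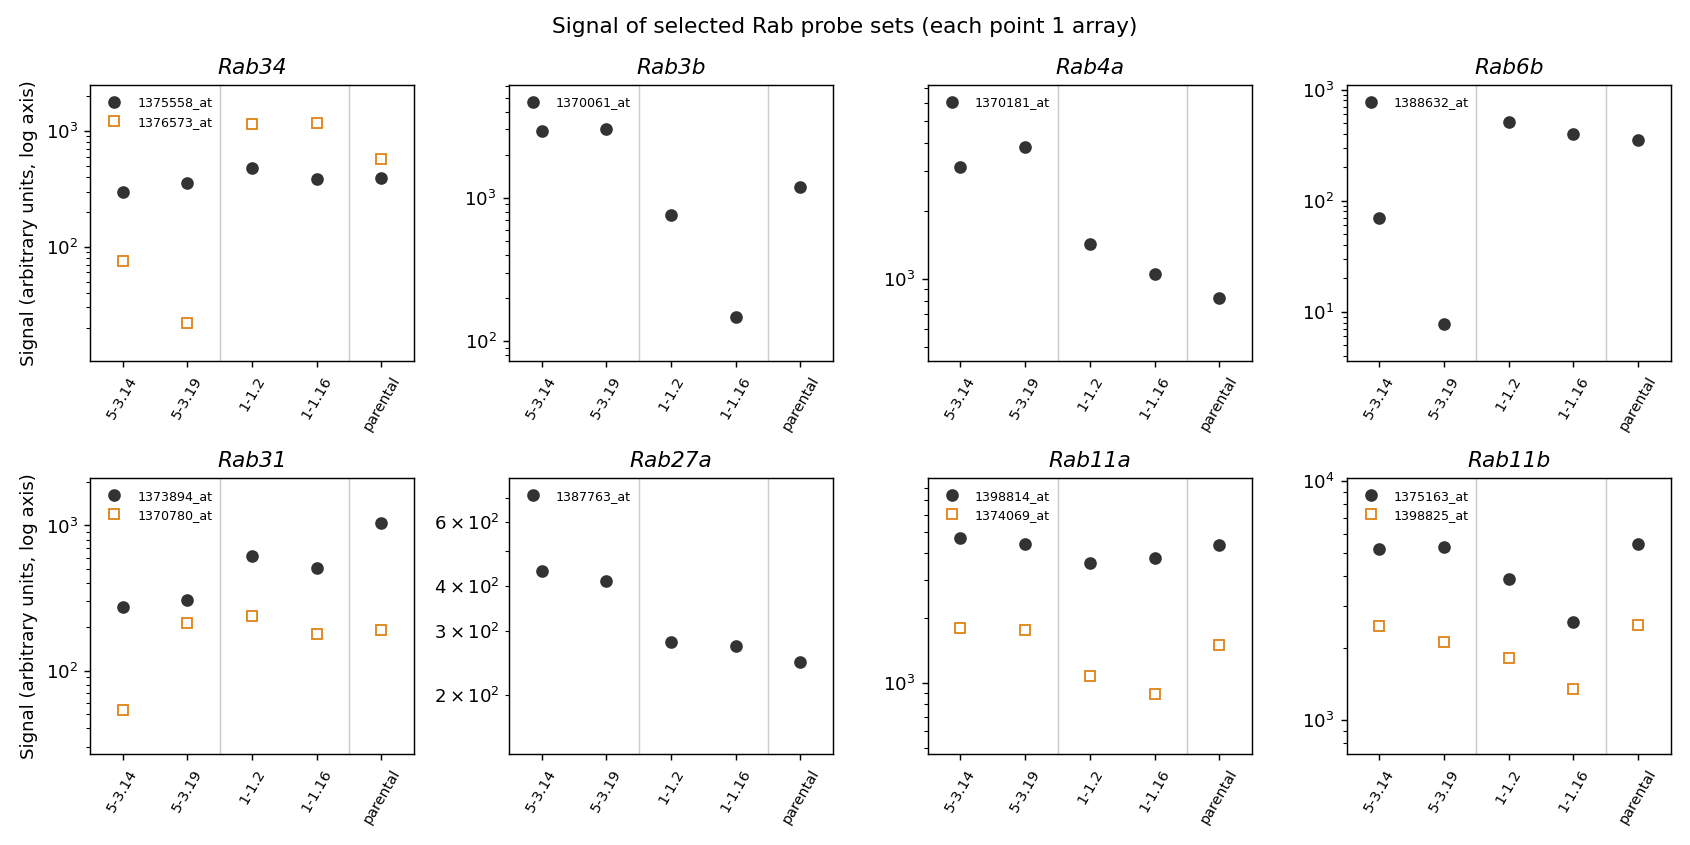
Signal (arbitrary units, log axis) on each of the 5 arrays for 8 Rab genes, with both probe sets where a gene has a pair; each point is 1 array, and the vertical lines part set 5-3, set 1-1 and the parental line. Rab34 on probe set 1376573_at and Rab6b are lowest in the 5-3 clones, Rab3b and Rab4a are highest there, and the other Rab34 probe set hardly moves.

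Sister clones of a set also differed from each other. Between the 5-3 sisters, 2 GTPase probe sets lay at least 2-fold apart, Rab34 and Rab3c, against 6.59% of all tested probe sets. Between the 1-1 sisters, 2 did so, Rab28 and Rab3b, against 2.67%. Rab28, known from human disease for its role in photoreceptor cilia, had 2835.3 and 5154.2 in set 5-3, 4900.8 and 2399.3 in set 1-1, and 4372.2 in the parental line. One clone of each set was low for Rab28, so its groups overlapped fully. The probe sets at least 2-fold from every other array were Rab34 in clone 5-3.19 and Rab3b in clone 1-1.16, where 0.609% and 0.735% of all tested probe sets were so placed. No Rab GTPase was so placed in clone 5-3.14 (1.37% of all tested probe sets), in clone 1-1.2 (0.347%) or in the parental line (0.651%).

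Of the 44 GTPase genes, 14 had several probe sets, which gave 19 pairs, 17 of them with both members tested. Both members had the same sign of the 5-3 minus 1-1 difference in 12 of the 17 pairs, and of the clone minus parental difference in 16. The median gap between the members was 0.33 on the log2 scale between the sets and 0.10 between clones and parental line, and 14 of the 17 lay within 0.5 between the sets. Rab34 had by far the widest gap. Rab14, which acts between the Golgi and endosomes, showed disagreement within one gene. Its probe set 1375687_at had 5519.4 and 4453.1 in set 5-3, 6212.7 and 5677.2 in set 1-1, and 6775.9 in the parental line, with set 5-3 lower. Its probe set 1385314_at had 2320.3 and 2194.5 in set 5-3, 1579.5 and 1711.2 in set 1-1, and 2196.9 in the parental line, with set 5-3 higher. Neither passed the test, and the other Rab14 probe sets, 1367884_at and 1376796_at, overlapped. Rab10, which moves vesicles from the Golgi to the surface, had 5103.7 and 5232.6 in set 5-3, 4552.2 and 4984.8 in set 1-1, and 5459.4 in the parental line on probe set 1375338_at. On 1368847_at Rab10 had 2948.3 and 2331.4 in set 5-3, 3274.5 and 2841.6 in set 1-1, and 2942.1 in the parental line. The first had sets that did not overlap, with a log2 difference of 0.12, and the second overlapped, at -0.22.

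The second comparison set the 4 clones against the parental line. It has 1 parental array, so the fit assumes that this array varies as the clones do among themselves, and the parental value enters every difference. No probe set of the array was called by limma (0.00% of 9520), and so no Rab. In simulated data this fit called 0% of 2-fold changes, so the lack of calls does not show equal levels. At an unadjusted limma p of 0.05, 3 of the 51 GTPase probe sets passed (5.88%), against 3.67% of all tested probe sets: Rab13, Rab22a and Rab31. All 4 clones lay above the parental line for 8 of the 51 (15.7%), against 18.4% of all tested probe sets, and below it for 15 (29.4%), of 11 genes, against 19.7%. Taking 1 probe set per gene, the median log2 difference was -0.08 over the 37 GTPase genes and 0.02 over all tested genes.

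Rab13, which acts at tight junctions and in recycling, had 863.6 and 536.7 in set 5-3, 742.4 and 917.3 in set 1-1, and 343.7 in the parental line. Every clone lay above the parental line, and clone 5-3.19 was nearest to it. The mean of the 4 clones was 765 ± 169 (SD, n = 4), a log2 difference of 1.08 ± 0.35, 2.11-fold (limma adjusted p = 1.00). Rab22a on probe set 1372862_at averaged 1232 ± 280 in the clones (SD, n = 4) against 626.3, a log2 difference of 0.92 ± 0.34. On its other probe set, 1389692_at, it had 526.3 and 734.6 in set 5-3, 530.1 and 425.3 in set 1-1, and 479.6 in the parental line, and the clones lay on both sides. Rab31 averaged 426 ± 163 in the clones (SD, n = 4) against 1042.8, a log2 difference of -1.32 ± 0.47, 2.50-fold lower. Rab3a had the 4 clones between 601.5 and 751.4, all below 1052.9 in the parental line, a log2 difference of -0.62 ± 0.26. For Rab3a the 2 sets overlapped and the parental line stood above both, whereas for Rab3b the parental line stood between the sets.

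Several further Rabs had all clones on one side of the parental line; Rab4a, given above, was one, with a log2 difference of 1.31. On the upper side, Rab9a, which carries receptors from late endosomes to the Golgi, had 854.4 and 1286.3 in set 5-3, 897.7 and 1141.0 in set 1-1, and 709.6 in the parental line. Rab4b, the close relative of Rab4a, had 880.1 and 586.3 in set 5-3, 863.6 and 670.0 in set 1-1, and 515.8 in the parental line. Rab5c had 2435.4 and 1960.5 in set 5-3, 1759.5 and 1679.8 in set 1-1, and 1523.9 in the parental line. Their log2 differences were 0.52, 0.50 and 0.34. On the lower side, Rab12 had 1570.3 and 1344.8 in set 5-3, 1490.0 and 1153.5 in set 1-1, and 1849.6 in the parental line on probe set 1371871_at. Its dimmer probe set, 1371055_at, had 323.0 and 223.9 in set 5-3, 219.8 and 189.6 in set 1-1, and 249.6 in the parental line. There the clones lay on both sides of the parental line, and set 5-3 was higher without overlap. Rab23, a negative regulator of Hedgehog signalling in the mouse, had 330.2 and 207.6 in set 5-3, 243.5 and 239.9 in set 1-1, and 385.4 in the parental line. Rab14 was lower in all clones on 3 of its 4 probe sets: 1367884_at had 3288.4 and 2763.5 in set 5-3, 2943.0 and 2811.0 in set 1-1, and 3923.1 in the parental line. On 1376796_at Rab14 had 2949.9 and 2526.8 in set 5-3, 2714.7 and 2337.5 in set 1-1, and 3450.6 in the parental line. The differences of Rab23, of Rab12 on 1371871_at and of Rab14 on those 3 probe sets lay between -0.32 and -0.57 on the log2 scale. They came with the same parental array as all others, where the poly(A) control transcripts gave more signal. The part of these transcripts in the result was not tested.

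**Figure D4:**
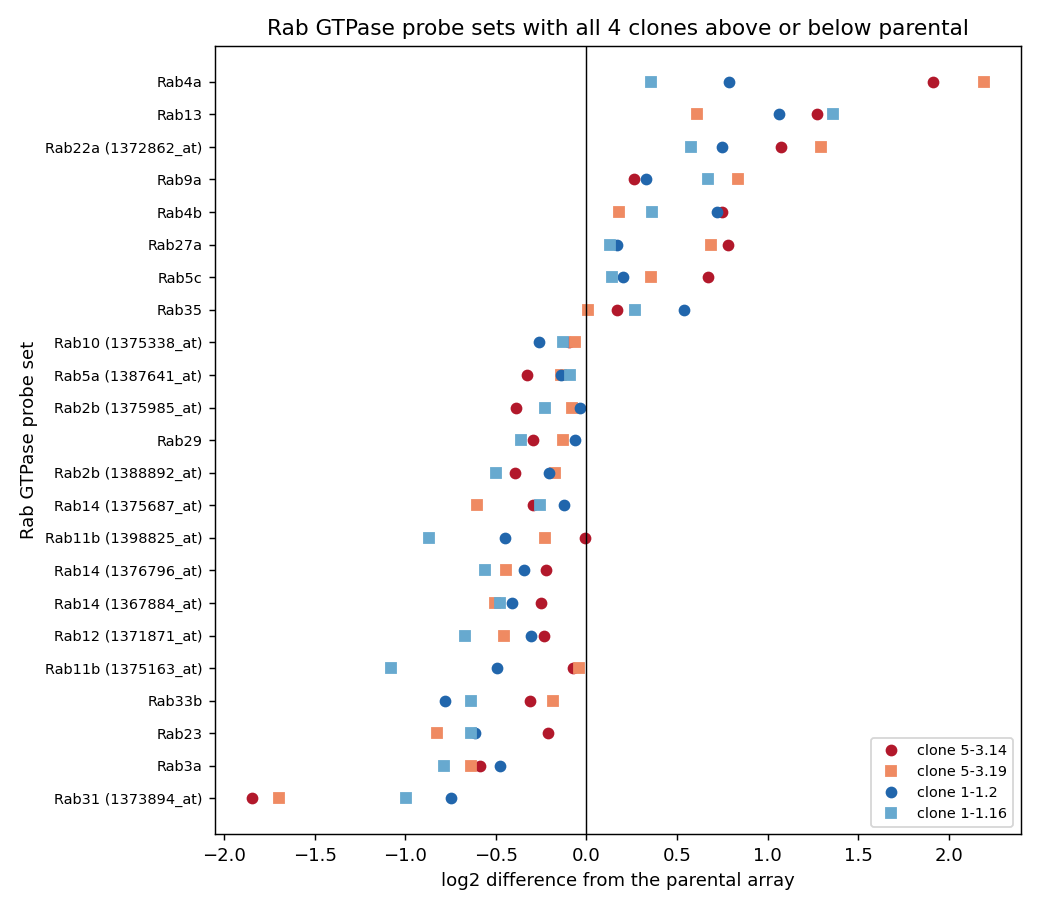
log2 difference of each of the 4 clones from the parental array for the 23 Rab GTPase probe sets with all clones on one side of it; 1 point per clone, and the vertical line at 0 is the parental value. The points of Rab13 and Rab3a of both sets mix, whereas those of Rab4a and Rab31 separate by set.

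Each clone was also set singly against the parental line, with no test. At least 2-fold above it were Rab13, Rab22a, Rab3b and Rab4a in clone 5-3.14 (4 of 51, against 3.32% of all tested probe sets), and Rab22a, Rab3b and Rab4a in clone 5-3.19 (3 of 51, against 2.56%). In clone 1-1.2 (1.60% of all tested probe sets) and in clone 1-1.16 (3.16%) Rab13 alone was. At least 2-fold below it were Rab31 and Rab34 in clones 5-3.14 (5.60% of all tested probe sets) and 5-3.19 (2.59%), Rab11b and Rab3b in clone 1-1.16 (4.46%), and 0 of 51 in clone 1-1.2 (3.45%).

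Partners of the Rabs were counted from fixed lists. Over 153 listed partner genes, 98 were on the array and 78 were tested, and limma called 0 of them in either comparison; 11 passed at an unadjusted p of 0.05 between the sets (14.1%, against 15.8% of all tested genes) and 2 between clones and parental line (2.56%, against 243 of 6944 genes), near the background. Both 5-3 clones lay above both 1-1 clones for 20 of the 78 and below for 16, against 1504 and 1809 of all 6944 tested genes. The median log2 difference between the sets was 0.02 for the partners. The 2 partner genes past an unadjusted p of 0.05 between clones and parental line were Madd, an exchange factor for Rab3 and Rab27, and Vps39, a subunit of the tethering complex that binds Rab7.

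Among the effectors of granule Rabs, 5 of 11 measured genes were tested. Sytl4, granuphilin, which binds Rab27a and Rab3a on insulin granules, had 116.5 and 748.3 in set 5-3, 1708.1 and 978.3 in set 1-1, and 3234.0 in the parental line. All 4 clones lay below the parental line and clone 5-3.14 was lowest, with a log2 difference of -2.01 ± 0.74 between the sets (limma adjusted p = 0.272). Rph3al, known as Noc2, an effector of Rab3 and Rab27, had 1178.4 and 1035.6 in set 5-3, 567.2 and 635.8 in set 1-1, and 924.4 in the parental line, a log2 difference of 0.86 ± 0.23 (limma adjusted p = 0.167). Myo5a, the myosin motor reached by Rab27a and Rab3a, had 189.6 and 333.4 in set 5-3, 358.0 and 440.6 in set 1-1, and 337.2 in the parental line. Rph3al thus stood higher in set 5-3, as Rab27a and Rab3b did, and Sytl4 and Myo5a lower.

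Of the 22 tested exchange factors, both 5-3 clones lay above both 1-1 clones for 9 and below for 5, against 21.7% and 26.1% of all tested genes. Rin2, an exchange factor for Rab5, had 467.5 and 685.1 in set 5-3, 171.2 and 117.6 in set 1-1, and 587.9 in the parental line. The 5-3 clones stood with the parental line and the 1-1 clones below, a log2 difference of 1.84 ± 0.31 (limma adjusted p = 0.0705). Its second, dim probe set had 67.7 and 100.2 in set 5-3, 78.9 and 112.9 in set 1-1, and 44.5 in the parental line, which overlapped. Dennd6a, an exchange factor for Rab14, had 1307.3 and 1298.1 in set 5-3, 730.5 and 628.0 in set 1-1, and 1267.7 in the parental line, at an adjusted p of 0.144 from limma. Hps1, a subunit of the exchange factor for Rab32 and Rab38, had 168.7 and 106.2 in set 5-3, 288.0 and 259.3 in set 1-1, and 217.0 in the parental line. Both 5-3 signals lay under the filter level, so Hps1 passed the filter through set 1-1 and the parental line. Its second, dim probe set had 127.6 and 67.1 in set 5-3, 117.5 and 151.7 in set 1-1, and 174.4 in the parental line, and the sets overlapped.

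Of the 17 tested GTPase-activating proteins, 7 were higher and 2 lower in both 5-3 clones than in both 1-1 clones, against 21.7% and 26.1% of all tested genes, with a median log2 difference of 0.12. Tbc1d10b, which acts on Rab27a, Rab35 and others, had 451.8 and 372.1 in set 5-3, 712.3 and 689.9 in set 1-1, and 822.9 in the parental line. Tbc1d2b had 1116.8 and 1056.8 in set 5-3, 680.8 and 670.4 in set 1-1, and 745.3 in the parental line. Tbc1d1, which acts on Rab10 and others in glucose transport, had 1535.9 and 2444.0 in set 5-3, 1286.6 and 1288.4 in set 1-1, and 2168.4 in the parental line. Of these, Tbc1d10b was lower and the others were higher in set 5-3 without overlap, and none passed the test.

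Of the 4 tested escort and delivery genes, Chm was the one whose sets did not overlap. Chm, the Rab escort protein that presents new Rabs for lipid attachment, had 352.2 and 764.6 in set 5-3, 877.0 and 1319.9 in set 1-1, and 512.0 in the parental line, a log2 difference of -1.02 ± 0.40 (limma adjusted p = 0.299). The second Chm probe set was dim, with 24.2 and 24.4 in set 5-3, 21.2 and 33.1 in set 1-1, and 34.2 in the parental line, and its sets overlapped. Gdi2, a GDP dissociation inhibitor, had 8614.3 and 9698.9 in set 5-3, 8465.7 and 9651.1 in set 1-1, and 7558.6 in the parental line, and its sets overlapped. Of the 30 tested effectors of other Rabs, 3 were higher and 6 lower in set 5-3 without overlap (against 21.7% and 26.1% of all tested genes), with a median log2 difference of -0.14. Rilpl1, which binds Rab8 and Rab10 when they are phosphorylated, had 165.6 and 334.9 in set 5-3, 397.9 and 568.5 in set 1-1, and 714.7 in the parental line. Rilpl2, its relative, had 883.6 and 1026.3 in set 5-3, 1737.2 and 1849.5 in set 1-1, and 1685.4 in the parental line, at an adjusted p of 0.149 from limma. Both were lower in set 5-3. Appl2, an early endosome effector of Rab5, had 1724.8 and 2362.7 in set 5-3, 1605.8 and 1246.1 in set 1-1, and 2129.6 in the parental line.

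Of the 7 partners named after a Rab that the rule took, 5 were tested and none was called by limma. Rab5if was lower in both 5-3 clones, with 5544.4 and 4282.9 in set 5-3, 7491.4 and 6365.4 in set 1-1, and 6405.2 in the parental line (log2 difference -0.50, limma adjusted p = 0.341). Rab11fip4, a Rab11 effector, had 572.6 and 1214.9 in set 5-3, 548.5 and 707.0 in set 1-1, and 1004.8 in the parental line. Rab3gap2, a subunit of the complex that ends the active state of Rab3, lay between 1106.8 and 1360.1 on all 5 arrays. Rab3ip, an exchange factor for Rab8, had 928.8 and 591.3 in set 5-3, 915.4 and 860.0 in set 1-1, and 591.9 in the parental line. Rab11fip3, another Rab11 effector, lay between 215.3 and 448.2. In the last 4 the sets overlapped. For comparison, the 15 tested Arf, Arl and Sar GTPase genes had a median log2 spread of 0.42 between the highest and lowest array. The median was 0.67 for the 37 Rab genes and 0.69 over all 6944 tested genes. At least 2-fold was reached by 0 of the 15 and 9 of the 37, against 1798 of all 6944. The Arf, Arl and Sar genes were also brighter, with a median signal of 2702 against 1353 for the Rabs. The difference between the families, and the part of brightness in it, was not tested.

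**Figure D5:**
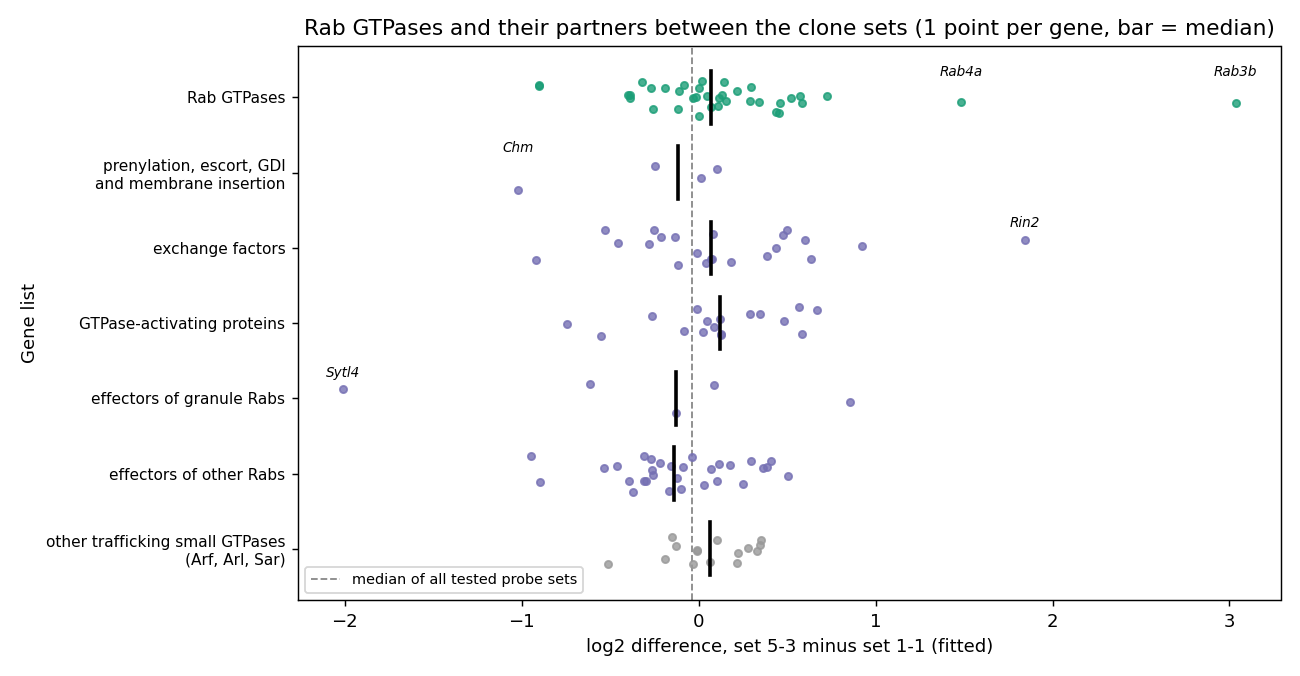
Fitted log2 difference between set 5-3 and set 1-1 for the 37 tested Rab GTPase genes, for the 5 partner lists and for the Arf, Arl and Sar genes, 1 point per gene at its brighter probe set; the black bar is the list's median and the dashed line the median of all tested probe sets. The list medians lie within 0.2 of 0, and Rab3b, Rab4a, Rin2, Chm and Sytl4 lie outside the main body of points. Rab34 is drawn at its brighter probe set, 1375558_at (-0.39), and not at the called 1376573_at (-4.18).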

How the data were processed

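Signal intensity per probe set on 5 arrays of a rat expression array was taken as the authors deposited it, already scaled, as the near-equal trimmed means show. How the scanner images were turned into signals, and any detection calls, were not stated in the sources used here. Probe sets were named from the platform annotation: 12783 had 1 symbol, 312 several and 2771 none, and the gene number of each of the 67 Rab probe sets was found in the GRCr8 table under an unchanged symbol. The 57 control probe sets were left out. Intensity plus an offset of 21.8, the 10th percentile of positive signals, was put on the log2 scale, so that fold changes of dim probe sets are understated. Probe sets with a mean below the 40th percentile were left out. limma 3.58.1 in R 4.3.3, with the prior variance allowed to follow intensity, was fitted to 9520 probe sets and p-values were adjusted by Benjamini-Hochberg over all of them, at 0.05. One fit compared the 4 clones with the parental array (3 residual degrees of freedom). The other compared set 5-3 with set 1-1 among 3 groups (2 residual degrees of freedom). The scripts were tested on simulated data. There the fit of clones against parental line called 0% of 2-fold and 55.2% of 4-fold changes. The fit between the sets called 4.48% of 2-fold and 79.1% of 4-fold changes. A probe set that was not called may therefore still differ by 2-fold or more.

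Full values were given for the tested granule Rabs, for up to 8 probe sets each way whose sets did not overlap, for up to 6 each way with all clones on one side of the parental line, for probe sets at least 2-fold from every other array, for the 4 brightest, for genes whose probe sets disagreed, and for up to 3 genes of each partner list. Several probe sets of a gene were kept apart. Counts and medians per gene used the brightest, so Rab34 enters them by 1375558_at and not by the called 1376573_at. The members, lists and rules were chosen with earlier results of these data known. Nothing says that the clones' RNA came from repeated cultures, so p-values measure the spread between these samples, and precision is limited by how few arrays there are. Alternatives changed the scaling, offset, filter, variance model, arrays and groups in the fit. RefSeq gave the sequences.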

Additional observations from a re-analysis of the deposited data

Results flagged for a closer look

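One value was singled out, because the clone sets differed in opposite directions from the parental line and the test of their difference passed. Rab34 on probe set 1376573_at had 75.1 and 22.0 in set 5-3, both below the 577.2 of the parental line, against 1144.0 and 1172.3 in set 1-1, both above it. The log2 difference between the sets was -4.18 (limma adjusted p = 0.0176). The probe set passed the filter on dim signals through set 1-1 and the parental line, and with no filter the limma adjusted p was 0.0678, which ends the call. Its other probe set, 1375558_at, gave -0.39. Of 40 named probe sets examined over the 4 clones, 0 had a clone whose gap to its neighbour passed Dixon's 95% limit. That limit assumes a single group, but the clones came from both sets, so the chance rate of about 1 in 20 does not apply. Many of these probe sets were named because the sets did not overlap, which leaves little room for a lone outlying clone. The count of 0 therefore cannot show whether any clone stood apart.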

How the results depend on the processing

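Signals near background limit what can be said of Rab34 and Rab6b in set 5-3. Between the sets, 1 Rab GTPase was called lower; with no filter and with the filter at the 60th percentile it was 0, since the limma adjusted p of Rab34 was 0.0678 in the first and Rab34 was not tested in the second. With 1 clone left out, the residual spread comes from the other set's pair alone, so calls of single Rabs are not read from those fits. In the 13 fits that tested it, the Rab34 difference ran from -4.75 to -3.23. That of Rab3b ran from 1.93 to 4.14 and that of Rab4a from 1.27 to 1.70.

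Over all probe sets, 21 were called higher in set 5-3. The count was 38 with median centring, 7 with no filter, 6 at the 60th percentile, 13 with no intensity trend and 31 to 127 with 1 clone left out; it was 32 without clone 1-1.16, 127 without 5-3.14 and 87 without 5-3.19. The 19 called lower became 32, 3 and 6 under the first of these, and 18 to 137 with 1 clone left out, with 94 without 5-3.14 and 137 without 5-3.19. The cause was not tested. Clones against parental line gave 0 calls under every alternative.

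Of 674 recomputed single differences, 662 kept direction and side of the threshold, and 9 changed sign, all with 1 clone left out. With 1 clone left out at a time, the clone minus parental difference ran from -0.026 to 0.45 for Rab26 (lowest without 1-1.2), from -0.73 to 0.66 for Rab3b (highest without 1-1.16) and from -0.45 to 0.010 for Rab3c (highest without 5-3.19). The difference between the sets ran from -0.14 to 0.17 for Rab3a (-0.14 without 1-1.16, -0.0086 without 5-3.14). For Rab3c it ran from -0.41 to 0.98 (lowest without 5-3.14). It ran from -0.036 to 0.33 for Rab12 on 1371871_at and from -0.13 to 0.37 for Rab7a on 1398838_at (both lowest without 1-1.16). For Rab14 on 1367884_at it ran from -0.057 to 0.19 (lowest without 5-3.14). Of the recomputed group medians, 112 stayed the same, 8 moved and 18 changed sign. The 8 that moved were 4 each for early and recycling endosomes and for cilia and other functions. The median of early and recycling endosomes ran from -0.10 to 0.32 between the sets. No paired analysis was possible because the labels give the clones no replicate numbers shared between sets.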
